A study of Gallus gallus with 12 samples.

Results

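The genes that build ribosomes, and those that encode subunits of RNA polymerases I and III, were examined in RNA sequencing libraries of chicken retinal cells that overexpress human MYCN (DMC cells) and of E14 retina. The genes were chosen by their symbol in the deposited table. They are the rows named UTP or NOL with a digit, NOP2, NOP9, NOP14, NOP16, NOP53, NOP56 or NOP58, POLR1 or POLR3 with a letter, and NCL, NPM1, FBL, NOLC1, BOP1, WDR12, PES1, RRP1B, RRP9, RRP12, NIP7, GNL3, EBNA1BP2 and GAR1. This gave 45 of 24358 rows, of which 4 encode RNA polymerase I subunits, 6 RNA polymerase III subunits, 15 factors of the small subunit processome, 4 proteins of small nucleolar ribonucleoproteins (snoRNPs), 12 factors of large subunit assembly and 2 the nucleolar proteins nucleolin and nucleophosmin. The remaining 2, NOL4 and NOL4L, carry the NOL symbol but have no known part in ribosome assembly. A further 4 rows had no symbol in the table and are given the names POLR1A, POLR3C, UTP14A and NOL12 by RefSeq, and they are described apart. Symbols of the list that matched no row, such as FBL, were not analysed here.

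The T58A DMC lines DMC4, DMC5 and DMC6 express human MYCN with the stabilising T58A substitution. The old DMC lines DMC1, DMC2 and DMC3 and the young DMC lines DMC8, DMC9 and DMC10 express human MYCN without it. All 9 lines were started from GFP-positive patches of E14 retinas of White Leghorn embryos that had been electroporated in ovo on embryonic day 3.5 with an integrating vector for MYCN and GFP under the CAG promoter. The T58A and old lines had spent over 200 days in culture, and the young lines under 4 weeks. The 3 E14 retinas were from the same strain, carried no vector and were not cultured, so the presence of MYCN, culture and the makeup of cell types cannot be told apart in any comparison with E14 retina. Values per library are given in the order of the lines and retina replicates above.

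Ribosomes are made in the nucleolus. RNA polymerase I transcribes the precursor of the large ribosomal RNAs, while RNA polymerase III makes 5S ribosomal RNA and transfer RNAs. The precursor is folded and cut within the small subunit processome, modified by box C/D and box H/ACA snoRNPs, which guide methylation and pseudouridylation, and the large subunit is assembled in parallel by a separate set of factors. MYC proteins are known activators of many of these genes, and growing cells need more of their products than postmitotic neurons do. The libraries were made from polyadenylated RNA, so the messages of the factors were measured, not ribosomal, transfer or nucleolar RNA.

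Between 20984957 and 35088450 reads were recovered per library, and normalized counts are these reads scaled by library total and trimmed mean of M-values (TMM) factor. All 45 genes had 10 or more reads in 3 or more libraries, as did 15284 genes in all, which were tested, and the lowest read number of any of the 45 was 91, for POLR3K in E14 replicate 1. A gene was called DE where the limma adjusted p did not exceed 0.05 and the log2 fold change reached 1 in either direction. Human MYCN had a normalized count of 61789 to 313643 in the 9 lines, lowest in the T58A line DMC5, and 0 reads in E14 retina. Of the markers of the labelled tissue, the summed level of 6 cone and photoreceptor genes was 11437 to 66032 in T58A, 36022 to 54100 in old and 51345 to 70054 in young DMC cells, against 40636 to 48244 in E14 retina. These genes did not move together, since OTX2 and GNAT2 averaged lower and THRB and PDE6H higher in old and young DMC cells than in E14 retina. The 8 markers of ganglion, amacrine and horizontal cells summed to 1182 to 3968 in the 9 lines, with 1 or 2 of them at 0 reads in each line, and to 25005 to 29845 in E14 retina, although RBPMS was higher in every line than in every retina and LHX1 was higher on average in each kind of line. The 4 pigment epithelium markers, mostly PMEL, summed to 23394 to 73137 in the lines and 178 to 218 in E14 retina. Of these, TYR averaged lower in old (0.321) and young DMC cells (0.785) than in E14 retina (10.1). RPE65 and MITF averaged higher in each kind of line. The 4 proliferation markers TOP2A, PCNA, CDK1 and CCNA2 summed to 8516 to 62544 in T58A, 27145 to 58470.0 in old and 38100.1 to 49356 in young DMC cells, against 3062 to 3346 in E14 retina. PCNA in DMC4, at 1319, was below all retinas, at 2012, 2044 and 2017, and in DMC6 it was 2331. Apart from PCNA in DMC4, each of these markers was higher in every line than in every retina. These shifts in marker sums go along with every difference from E14 retina below, and their part in it was not tested. In such bulk RNA, fewer cells of a type and less RNA per cell cannot be told apart.

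Most of the ribosome biogenesis genes were upregulated in all 3 kinds of DMC cells. The 45 genes together took 1.70%, 1.10% and 1.22% of the reads in T58A, 0.899%, 1.04% and 0.859% in old and 0.911%, 1.05% and 0.915% in young DMC cells, against 0.388%, 0.374% and 0.370% in E14 retina. Every line was above every retina, and the T58A line DMC4 stood above the other 8 lines. In T58A DMC cells 33 of the 45 genes were upregulated, where 19.6% of all genes tested were, and 2 were downregulated, where 24.8% of all genes were. In old DMC cells 29 were upregulated and 2 downregulated, against 20.3% and 23.5% of all genes. In young DMC cells 26 were upregulated and 1 downregulated, against 20.5% and 23% of all genes. Their median log2 fold change was 1.52 in T58A, 1.34 in old and 1.24 in young DMC cells, while all genes had a median of -0.096, -0.049 and -0.031 in the same 3 comparisons. Read totals without TMM factors shifted the median of all genes to -0.32, -0.38 and -0.45, and 29, 22 and 20 of the 45 genes were then upregulated in T58A, old and young DMC cells, against 15.9%, 15.2% and 14.4% of all genes. The number downregulated was 2 in each comparison on that scale, against 28.5%, 29.4% and 30.4% of all genes. With the deposited values brought to a common column total, 29, 20 and 17 were upregulated, against 15.5%, 14.9% and 14.3% of all genes, and 2, 2 and 1 downregulated, against 28%, 28.9% and 30% of all genes. These 3 comparisons share their E14 libraries and are not independent of each other.

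All 9 lines were above all 3 retinas for 35 of the 45 genes, as they were for 21.6% of all genes tested, and below them for 2, NOL4 and NOL4L, as for 25.9% of all genes. The remaining 8 genes overlapped with E14 retina in at least 1 line, among them POLR1E, POLR3A, POLR3F, NOL7, NOL9, NOP53 and UTP23. Upregulation was called in all 3 comparisons for 25 genes, in 2 for POLR3B, UTP11 and UTP18, and in 1 for 7 genes. They include POLR1E, EBNA1BP2, NOL11 and NOP14 in T58A, NOL10 in old and NOP53 in young DMC cells. The matching shares of all genes were not computed. The share upregulated in all 3 can be at most the 19.6% upregulated in T58A. The 8 genes that were DE in no comparison were POLR1D, POLR3A, POLR3F, NOL7, NOL8, NOL9, UTP6 and UTP23. The 25 genes include all 4 snoRNP proteins, NCL and NPM1, and 4 of the 10 polymerase subunits, which are POLR1B, POLR1C, POLR3E and POLR3K.

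**Figure D1:**
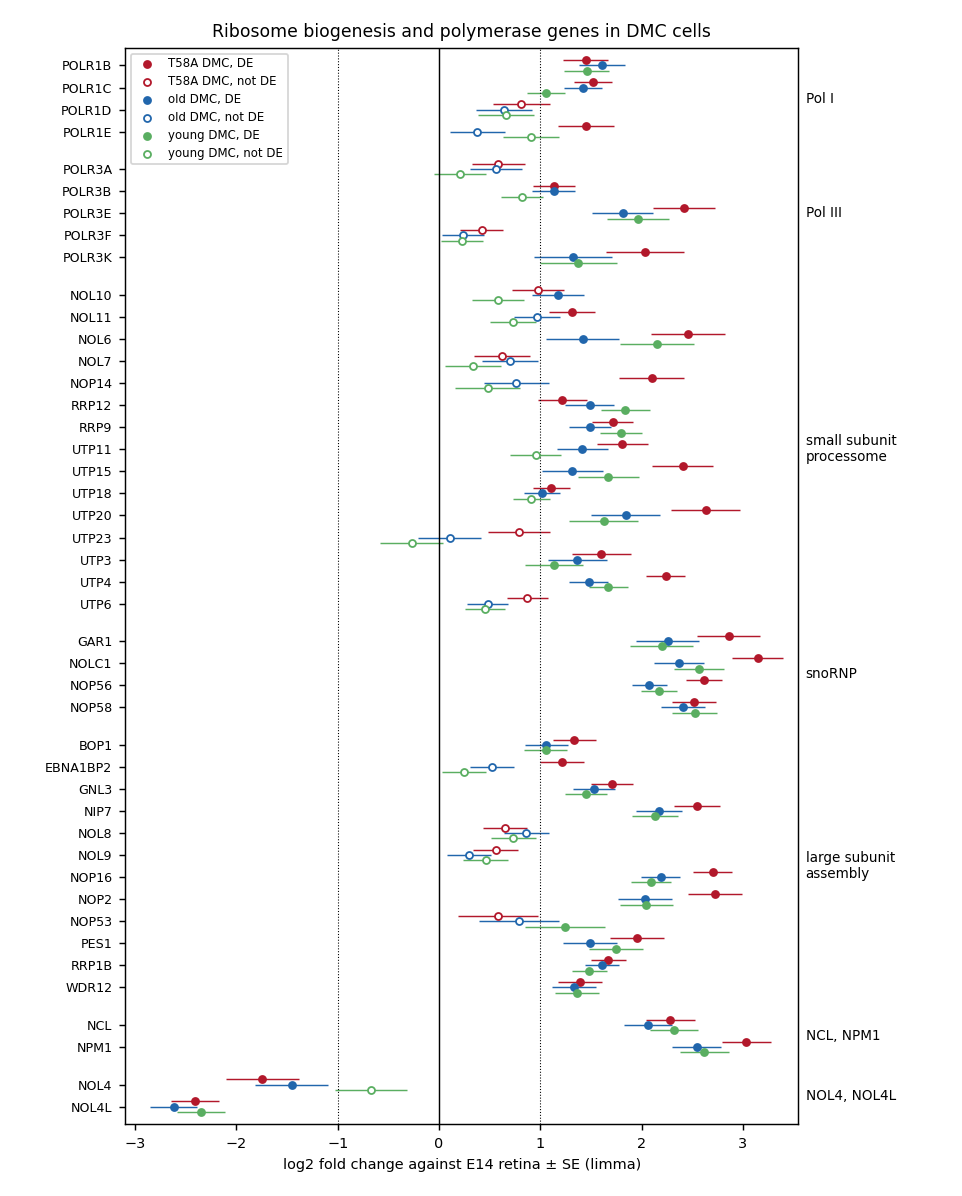
Log2 fold change against E14 retina (x axis, with SE from limma) of 44 of the 45 genes (y axis, grouped by role) in T58A (red), old (blue) and young (green) DMC cells, filled where the gene was DE and open where it was not. Dotted lines mark log2 fold changes of -1 and 1. The snoRNP proteins, NCL and NPM1 lie between 2.06 and 3.15, while most Pol III subunits and NOL4 and NOL4L lie apart from them.

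NCL encodes nucleolin, an abundant nucleolar protein that acts on ribosomal DNA transcription and early precursor processing. Its normalized count was 89509, 85270.2 and 71858 in T58A, 62546, 85249 and 64858 in old and 72174, 103218 and 79612 in young DMC cells, against 17763, 15766 and 16917 in E14 retina. The lines and the retinas were far apart, while the 3 kinds of lines overlapped. Nucleolin had a log2 fold change against E14 retina of 2.29 in T58A, 2.06 in old and 2.32 in young DMC cells, each with an SE of 0.24 (limma adjusted p = 2.14e-05, 4.38e-05 and 1.99e-05). NPM1, which encodes the chaperone nucleophosmin, had 110517, 78617 and 88581 in T58A, 60853, 76864 and 59391 in old and 55241, 82602 and 71477 in young DMC cells, against 11230.3, 10752 and 11598 in E14 retina. The 3 T58A lines were all above the 3 old lines, and DMC5 lay within the range of the young lines. NPM1 was at 8.27-fold in T58A, 5.87-fold in old and 6.23-fold in young DMC cells relative to E14 retina (limma adjusted p = 3.44e-06, 1.11e-05 and 9.46e-06). NCL and NPM1 together took 0.855%, 0.541% and 0.629% of the reads in T58A, 0.464%, 0.560% and 0.424% in old and 0.462%, 0.589% and 0.488% in young DMC cells, against 0.131%, 0.120% and 0.126% in E14 retina. Without them the other 43 genes took 0.844%, 0.555% and 0.589% in T58A, 0.435%, 0.483% and 0.435% in old and 0.449%, 0.456% and 0.427% in young DMC cells, against 0.257%, 0.254% and 0.245% in E14 retina. Every line remained above every retina and DMC4 above the other lines.

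All 4 snoRNP proteins were upregulated in each comparison, with a median log2 fold change over E14 retina of 2.74 in T58A, 2.31 in old and 2.36 in young DMC cells. Of all genes, 19.6%, 20.3% and 20.5% were upregulated in these comparisons. NOLC1 encodes a nucleolar chaperone that carries snoRNPs and was at 18234, 8875 and 9589 in T58A, 6311, 7744 and 6296 in old and 6862, 7974 and 8479 in young DMC cells, against 1178, 1312 and 1442 in E14 retina. No line overlapped with E14 retina, the T58A lines were above all old and young lines, and DMC4 was the highest by a wide margin. NOLC1 had the largest log2 fold change of the 45 genes, 3.15 in T58A DMC cells (SE 0.25, limma adjusted p = 3.44e-06), against 2.37 in old and 2.57 in young DMC cells. NOP56 and NOP58 encode the paired core proteins of box C/D snoRNPs. NOP56 had 13348, 11331 and 10221 in T58A, 7801, 8386 and 7684 in old and 6797, 9500.3 and 9417 in young DMC cells, against 1721, 1994 and 1944 in E14 retina. It was at 6.17-fold in T58A, 4.22-fold in old and 4.54-fold in young DMC cells (limma adjusted p = 1.35e-06, 6.01e-06 and 4.94e-06), and again all T58A lines were above all old and young lines. NOP58 had 6131, 10444 and 10226 in T58A, 7156, 9479 and 7741 in old and 7535, 9962 and 8846 in young DMC cells, against 1585, 1411 and 1560.3 in E14 retina. DMC4 held the lowest NOP58 value of the 9 lines and, among the T58A lines, the highest NOP56 value. The log2 fold change of NOP58 was 2.52 in T58A, 2.41 in old and 2.52 in young DMC cells (limma adjusted p = 6.66e-06, 9.00e-06 and 7.45e-06). GAR1, a core protein of box H/ACA snoRNPs, had 2561, 2706 and 1581 in T58A, 953, 1657 and 1977 in old and 1411, 1488 and 1313 in young DMC cells, against 411, 234 and 294 in E14 retina. All lines were above the retinas, DMC1 least, and its log2 fold change was 2.86 in T58A, 2.26 in old and 2.20 in young DMC cells (limma adjusted p = 2.57e-05, 1.31e-04 and 1.53e-04).

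**Figure D2:**
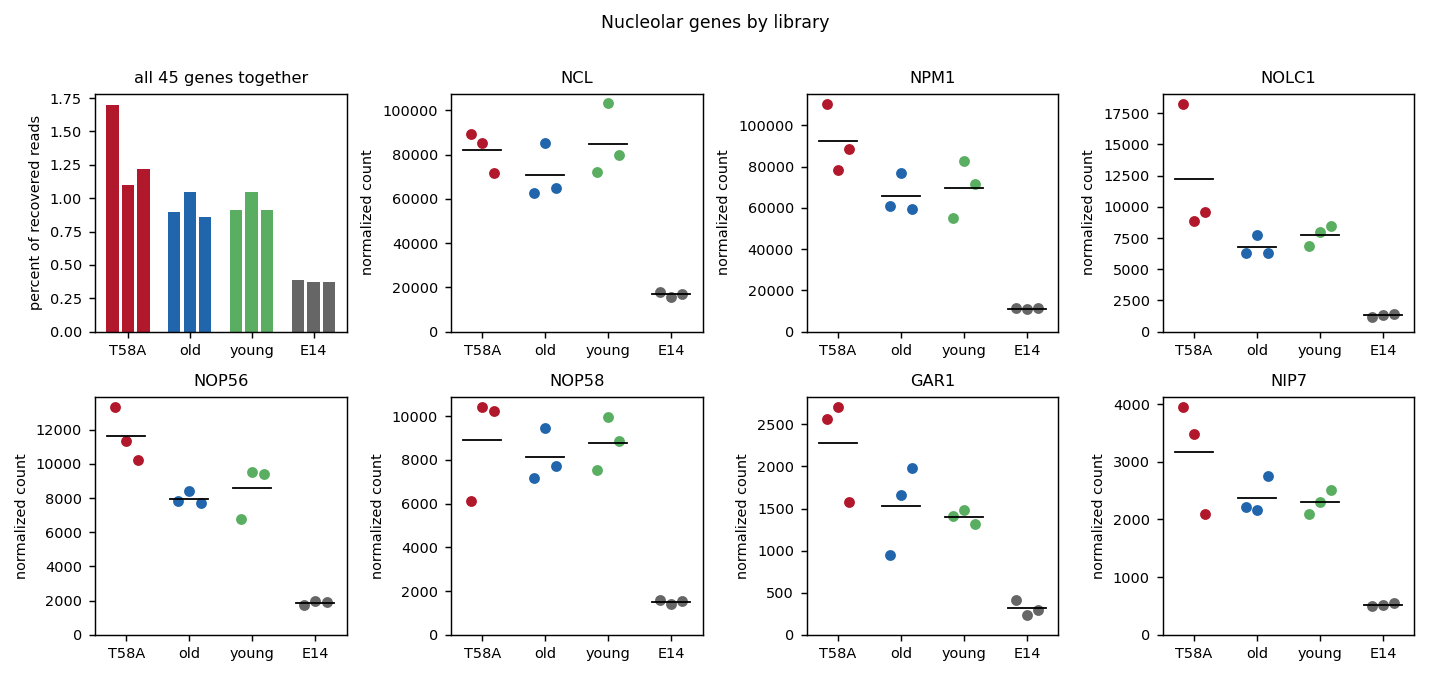
The first panel shows the percent of recovered reads that the 45 genes took in each library (bars, in the order DMC4 to DMC6, DMC1 to DMC3, DMC8 to DMC10 and E14 replicates 1 to 3). The other panels show the normalized count of 7 genes in each library (points) with the mean of each group (lines). Each line is above each retina in every panel, DMC4 takes the largest share of reads (1.70%), and its NOP58 level is the lowest of the 9 lines.

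RNA polymerase I has its second largest subunit encoded by POLR1B. POLR1B had 1628, 2774 and 2095 in T58A, 2657, 2725 and 1828 in old and 2253, 2233 and 1917 in young DMC cells, against 711, 775 and 842 in E14 retina. All lines were above the retinas, and the 3 kinds of lines overlapped. It was upregulated, at 2.79-fold in T58A, 3.1-fold in old and 2.75-fold in young DMC cells (limma adjusted p = 2.74e-04, 1.40e-04 and 2.72e-04). POLR1C and POLR1D encode the pair of subunits that RNA polymerases I and III share. POLR1C had 2051, 2890.4 and 2739 in T58A, 2889, 2266 and 2028 in old and 1819.7, 1704 and 1986 in young DMC cells, against 899, 868 and 879 in E14 retina, so that no line overlapped with the retinas. POLR1C had a log2 fold change of 1.52 in T58A, 1.42 in old and 1.05 in young DMC cells (limma adjusted p = 5.76e-05, 9.34e-05 and 6.81e-04). The call was lost in young DMC cells under 4 of 5 other scalings and without DMC10, and in old DMC cells with deposited values at a common column total. Here and below, the 5 other scalings include the deposited values as they stand and at a common column total. Only 8.36% of the deposited values carried the TMM factor of their own library. POLR1D had 474, 688 and 858 in T58A, 402, 665 and 737 in old and 568, 617 and 585 in young DMC cells, against 394, 360.2 and 363 in E14 retina. All lines were above the retinas, DMC1 only just. POLR1D was not DE in any comparison (log2 fold change 0.81 in T58A, 0.64 in old and 0.66 in young DMC cells, limma adjusted p = 0.0291, 0.0733 and 0.0662). POLR1E, a subunit of the polymerase I subcomplex that acts in initiation and elongation, lies on chromosome Z and is described below with the other genes there. These 4 RNA polymerase I subunits all had their lowest T58A level in DMC4, the line with the highest share of reads on the 45 genes. Other subunits of the enzyme, described below, did not share this. POLR1A was lowest in DMC6 among the T58A lines, and POLR1F, listed as TWISTNB, was highest in DMC4.

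Among the RNA polymerase III subunits, POLR3E and POLR3K were upregulated in all 3 comparisons and POLR3A and POLR3F in none. POLR3E encodes a peripheral subunit of the enzyme and had 6195, 3039.7 and 4486 in T58A, 2137, 4261 and 2637 in old and 2447, 3939 and 3401 in young DMC cells, against 814, 815 and 827 in E14 retina. The 3 retinas were nearly equal and far below every line, and the lines spread widely within each group. POLR3E had a log2 fold change of 2.42 in T58A, 1.82 in old and 1.97 in young DMC cells (limma adjusted p = 6.69e-05, 4.69e-04 and 2.75e-04). POLR3K, a small subunit that takes part in termination, had 747, 499 and 426 in T58A, 301, 322 and 375 in old and 303, 283 and 472 in young DMC cells, against 80.8, 129 and 219 in E14 retina. The retinas differed among themselves, and all lines were above them. Its log2 fold change was 2.03 in T58A, 1.32 in old and 1.38 in young DMC cells with an SE of 0.38 (limma adjusted p = 0.00104, 0.0129 and 0.0106). Without TMM factors POLR3K was no longer DE in old or young DMC cells, nor without E14 replicate 1 in old and without DMC10 in young DMC cells.

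POLR3A and POLR3B encode the large catalytic subunits of RNA polymerase III. POLR3B had 1960.2, 2102 and 2785 in T58A, 2829.9, 1849 and 2176 in old and 2102, 1893 and 1494 in young DMC cells, against 1032, 977 and 1070.2 in E14 retina, with all lines above the retinas. It was upregulated in T58A (log2 fold change 1.14, SE 0.21, limma adjusted p = 9.39e-04) and in old DMC cells (log2 fold change 1.13, SE 0.21, limma adjusted p = 9.84e-04), while in young DMC cells it stayed under the fold criterion (log2 fold change 0.82, SE 0.21, limma adjusted p = 0.00685). Whether its change differed between young and old DMC cells is given by their direct comparison, in which POLR3B was not DE (log2 fold change 0.31, limma adjusted p = 0.722). Neither call held without TMM factors, and that in T58A was lost without DMC6 and that in old DMC cells without DMC1. POLR3A had 1814, 1829 and 2260.1 in T58A, 2607, 1464 and 1851 in old and 2119, 1375 and 1174 in young DMC cells, against 1441, 1283 and 1195 in E14 retina. DMC1 and DMC6 were the highest, DMC9 lay within the range of the retinas and DMC10 below it. POLR3A had a log2 fold change of 0.59 in T58A, 0.56 in old and 0.21 in young DMC cells (limma adjusted p = 0.074, 0.0877 and 0.517). POLR3F, a subunit that helps the enzyme reach its promoters, overlapped with the retinas too and had a log2 fold change of 0.42 in T58A, 0.24 in old and 0.23 in young DMC cells (limma adjusted p = 0.112, 0.368 and 0.386).

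**Figure D3:**
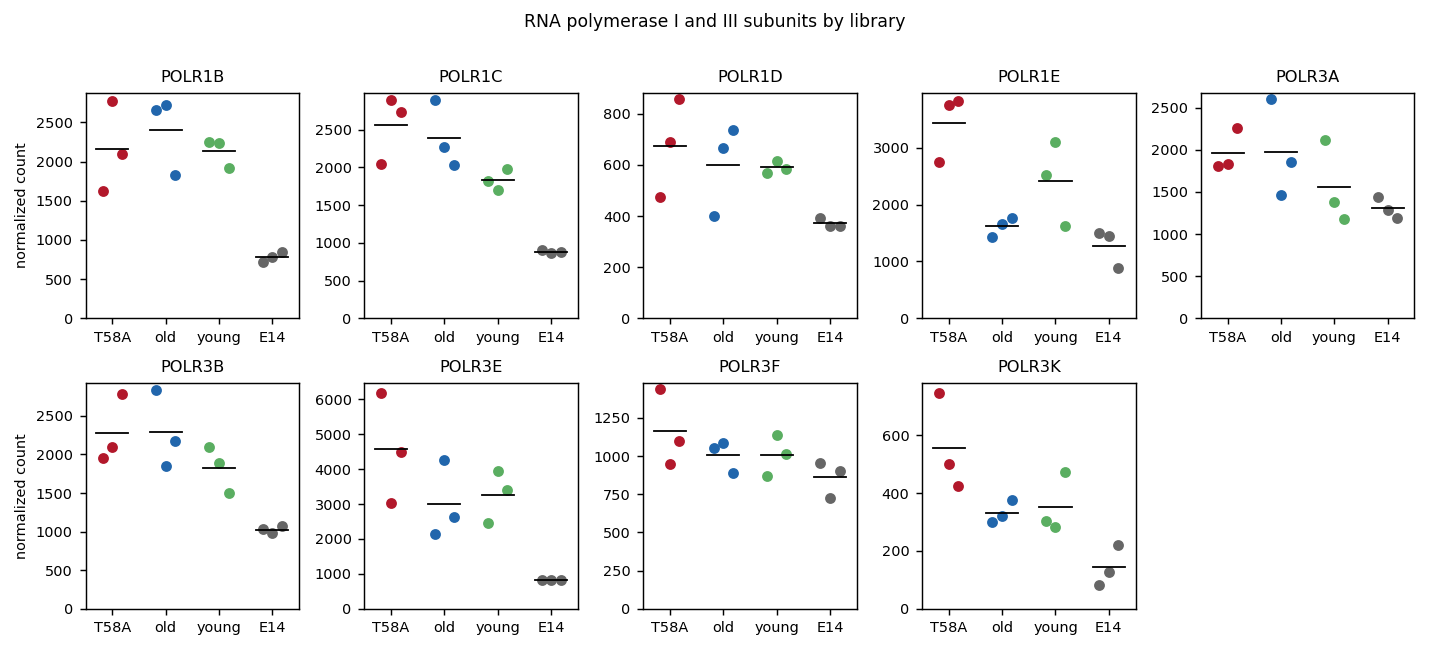
Normalized count of RNA polymerase I subunits (POLR1 panels) and RNA polymerase III subunits (POLR3 panels) in each library (points) with the mean of each group (lines), on axes that start at 0. All lines are above all retinas for POLR1B, POLR1C, POLR1D, POLR3B, POLR3E and POLR3K, and DMC4 has the lowest T58A level in each POLR1 panel.

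Of the 15 small subunit processome genes, 11 were upregulated in T58A, 10 in old and 7 in young DMC cells, and none was downregulated. Their median log2 fold change was 1.60, 1.32 and 0.95 in T58A, old and young DMC cells. The shares of all genes in these comparisons were 19.6%, 20.3% and 20.5% upregulated and 24.8%, 23.5% and 23% downregulated. RRP9, RRP12, UTP3, UTP4, UTP15, UTP20 and NOL6 were upregulated in all 3 comparisons. UTP20 encodes a very large scaffold protein of the processome and had 20328, 7008 and 7498 in T58A, 6289.5, 5690.0 and 5781 in old and 6513, 4373 and 4609 in young DMC cells, against 1689, 1688 and 1567 in E14 retina. Every line was above every retina, and DMC4 was far above the other 8 lines. Its log2 fold change was 2.63 in T58A, 1.84 in old and 1.63 in young DMC cells (limma adjusted p = 7.94e-05, 8.82e-04 and 0.00194), with an SE of 0.34. UTP4, a WD-repeat subunit of an early complex of the processome, had 3318, 2326 and 2092 in T58A, 1501, 1487 and 1487 in old and 1503, 1940.1 and 1700.1 in young DMC cells, against 526, 551 and 526 in E14 retina. The T58A lines were above all others, and its log2 fold change was 2.24 in T58A, 1.48 in old and 1.67 in young DMC cells (limma adjusted p = 5.72e-06, 8.62e-05 and 3.78e-05).

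RRP9, a protein of the U3 snoRNP at the heart of the processome, was upregulated, at 3.37-fold in T58A, 2.81-fold in old and 3.48-fold in young DMC cells (limma adjusted p = 4.92e-05, 1.31e-04 and 3.71e-05). RRP12, a factor of small subunit maturation and export, had a log2 fold change of 1.22 in T58A, 1.49 in old and 1.84 in young DMC cells (limma adjusted p = 0.00144, 4.01e-04 and 9.41e-05), and lost its call in T58A DMC cells under 3 of 5 other scalings. NOP14, a factor needed for small subunit maturation, had 6037, 2238 and 6059 in T58A, 1814, 1655 and 1688 in old and 1397, 1494 and 1349 in young DMC cells, against 1191, 927 and 939 in E14 retina. DMC4 and DMC6 were nearly equal and far above all other libraries, while DMC5 was close to the old lines. NOP14 was upregulated in T58A DMC cells (log2 fold change 2.10, SE 0.32, limma adjusted p = 2.52e-04), with a log2 fold change of 0.76 in old (limma adjusted p = 0.0647) and 0.48 in young DMC cells (limma adjusted p = 0.23). UTP23, known for its part in releasing a snoRNA from the precursor in yeast, had 384, 262 and 543 in T58A, 234, 277 and 202 in old and 193, 188 and 165 in young DMC cells, against 241, 223 and 195 in E14 retina. The young lines were all below the retinas, and the T58A lines all above them. None of its log2 fold changes (0.79 in T58A, 0.10 in old and -0.27 in young DMC cells) met the criteria (limma adjusted p = 0.0494, 0.796 and 0.489).

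Of the 12 large subunit assembly genes, 9 were upregulated in T58A, 8 in old and 9 in young DMC cells, and none was downregulated. The shares of all genes in these comparisons were 19.6%, 20.3% and 20.5% upregulated and 24.8%, 23.5% and 23% downregulated. PES1, BOP1 and WDR12 form a complex that is needed to process the precursor of the large subunit RNAs. PES1 had 12158, 9774 and 7052 in T58A, 5037, 9244 and 6913 in old and 6246, 9515 and 9108 in young DMC cells, against 2668, 2251 and 2386 in E14 retina. No line overlapped with the retinas, and its log2 fold change was 1.96 in T58A, 1.50 in old and 1.75 in young DMC cells (limma adjusted p = 1.19e-04, 7.43e-04 and 2.64e-04). BOP1 had 2106, 3637 and 3746 in T58A, 2629, 2298 and 2678 in old and 2589, 2572 and 2402 in young DMC cells, against 1225, 1292 and 1128 in E14 retina. Its log2 fold change was close to the criterion in old and young DMC cells, at 1.33 in T58A, 1.06 in old and 1.05 in young DMC cells (limma adjusted p = 3.25e-04, 0.00154 and 0.00157). The call in old and young DMC cells was lost under 4 of 5 other scalings. WDR12 had 4293, 3950.2 and 2343 in T58A, 2909.8, 3606 and 3399.7 in old and 3049, 3716 and 3343 in young DMC cells, against 1308, 1272 and 1326 in E14 retina. DMC6 was its lowest line, and all lines were above the retinas. WDR12 had a log2 fold change of 1.39 in T58A, 1.34 in old and 1.37 in young DMC cells (limma adjusted p = 2.96e-04, 4.01e-04 and 3.43e-04), and without TMM factors it was DE in T58A DMC cells alone.

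NOP2 encodes a methyltransferase of large subunit ribosomal RNA and is known as a proliferation antigen. It had 9938, 6179.8 and 3885 in T58A, 3996, 3759.5 and 3776 in old and 4068, 3903 and 3669.6 in young DMC cells, against 933, 979 and 897 in E14 retina. The old and young lines were close to each other, and DMC4 and DMC5 were above them. NOP2 had a log2 fold change of 2.73 in T58A, 2.04 in old and 2.05 in young DMC cells (limma adjusted p = 1.32e-05, 9.06e-05 and 8.48e-05). NOP16, a factor of early large subunit particles, had 3771, 2826 and 2626 in T58A, 1984, 2072 and 2337 in old and 1663, 2019 and 2354 in young DMC cells, against 426, 467 and 508 in E14 retina, and was at 6.58-fold in T58A, 4.56-fold in old and 4.31-fold in young DMC cells relative to E14 retina (limma adjusted p = 1.88e-06, 7.29e-06 and 9.70e-06). All T58A lines were above all old and young lines. NIP7, a factor of precursor processing and large subunit assembly, was at 6.07-fold in T58A, 4.54-fold in old and 4.39-fold in young DMC cells (limma adjusted p = 7.32e-06, 2.10e-05 and 2.38e-05). GNL3, the nucleolar GTPase nucleostemin known from stem and tumour cells, had 4970.3, 7261 and 6175 in T58A, 4010.4, 6532 and 5952 in old and 4529, 5354 and 5462 in young DMC cells, against 1911, 1787 and 1881 in E14 retina. All lines were above the retinas, with a log2 fold change of 1.70 in T58A, 1.53 in old and 1.45 in young DMC cells (limma adjusted p = 5.68e-05, 1.18e-04 and 1.67e-04).

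RRP1B, which encodes a nucleolar protein of large subunit assembly, was at 3.2-fold in T58A, 3.07-fold in old and 2.79-fold in young DMC cells relative to E14 retina and its young lines were nearly equal, at 6930.0, 6866 and 6941. EBNA1BP2, a factor of early large subunit particles, had 1893, 1608 and 1244 in T58A, 849, 862 and 1238 in old and 763, 924 and 720.4 in young DMC cells, against 699.5, 642 and 676 in E14 retina. It was upregulated in T58A (log2 fold change 1.21, SE 0.22, limma adjusted p = 7.79e-04) and not DE in old (log2 fold change 0.53, SE 0.22, limma adjusted p = 0.0624) or young DMC cells (log2 fold change 0.25, SE 0.22, limma adjusted p = 0.365). The call in T58A DMC cells was lost under 3 of 5 other scalings. NOP53 was upregulated in young DMC cells (log2 fold change 1.24, SE 0.39, limma adjusted p = 0.02) and was the most variable of the 45 genes among the T58A lines, with 4006, 2224 and 1166 in T58A, 1802, 3758 and 2372 in old and 2967, 3395 and 4076 in young DMC cells, against 1215, 1515 and 1683 in E14 retina. DMC6 was below all retinas and DMC4 above all but 1 of the lines. NOL8, a factor of precursor processing, and NOL9, a kinase of the cut precursor, were not DE in any comparison. NOL8 had a log2 fold change of 0.65 in T58A, 0.86 in old and 0.73 in young DMC cells and NOL9 of 0.56 in T58A, 0.30 in old and 0.46 in young DMC cells.

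POLR1E, UTP15 and NOL6 lie on chromosome Z, of which male birds carry a second copy and females do not. HINTW, a gene of the female-specific chromosome W, had 15587 to 38062 reads in 5 libraries (DMC1, DMC2, DMC3, DMC10 and E14 replicate 3) and at most 12 in the other 7. POLR1E had 2753, 3758 and 3827 in T58A, 1435, 1665 and 1767 in old and 2529, 3098 and 1623 in young DMC cells, against 1506, 1441 and 887 in E14 retina. UTP15, a subunit of the early processome complex that acts with polymerase I transcription, had 6614, 5695 and 3993 in T58A, 2381, 2655 and 2448 in old and 3752, 4134 and 2092 in young DMC cells, against 1300.5, 1104 and 697 in E14 retina. NOL6, a processome subunit, had 4729.5, 7697 and 5306 in T58A, 2773, 2739.8 and 2907 in old and 6299, 6095 and 2637 in young DMC cells, against 1307, 1367 and 647 in E14 retina. For each of these genes E14 replicate 3 was the lowest retina, DMC10 the lowest young line, and the old lines were below the T58A lines. Set within libraries that hold HINTW reads, NOL6 was 4.34-fold higher in the 3 old lines and 4.07-fold higher in DMC10 than in E14 replicate 3. Within libraries without them, NOL6 was 4.42-fold higher in the 3 T58A lines and 4.64-fold higher in DMC8 and DMC9 than in the mean of E14 replicates 1 and 2. The same ratios were 3.58 for the old lines and 3.00 for DMC10, and 4.52 for the T58A lines and 3.28 for DMC8 and DMC9, for UTP15. For POLR1E they were 1.83 for the old lines and 1.83 for DMC10, and 2.34 for the T58A lines and 1.91 for DMC8 and DMC9.

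Over the whole groups, NOL6 and UTP15 were upregulated in each comparison. The log2 fold change was 2.46 in T58A, 1.42 in old and 2.15 in young DMC cells for NOL6 (limma adjusted p = 2.05e-04, 0.0069 and 5.22e-04) and 2.41 in T58A, 1.32 in old and 1.67 in young DMC cells for UTP15 (limma adjusted p = 6.78e-05, 0.00353 and 7.85e-04). POLR1E was upregulated in T58A (log2 fold change 1.45, SE 0.27, limma adjusted p = 0.00103) and did not meet the criteria in old (log2 fold change 0.38, SE 0.27, limma adjusted p = 0.267) or young DMC cells (log2 fold change 0.91, SE 0.27, limma adjusted p = 0.0159). No old line lacked HINTW reads and no T58A line held them. HINTW state and the T58A substitution therefore cannot be told apart for these 3 genes, nor for any other gene. In T58A against old DMC cells the median log2 fold change of 577 genes on chromosome Z was 0.49 and that of 11772 genes on autosomes was -0.043, beside 1.08 for the 3 genes named here.

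**Figure D4:**
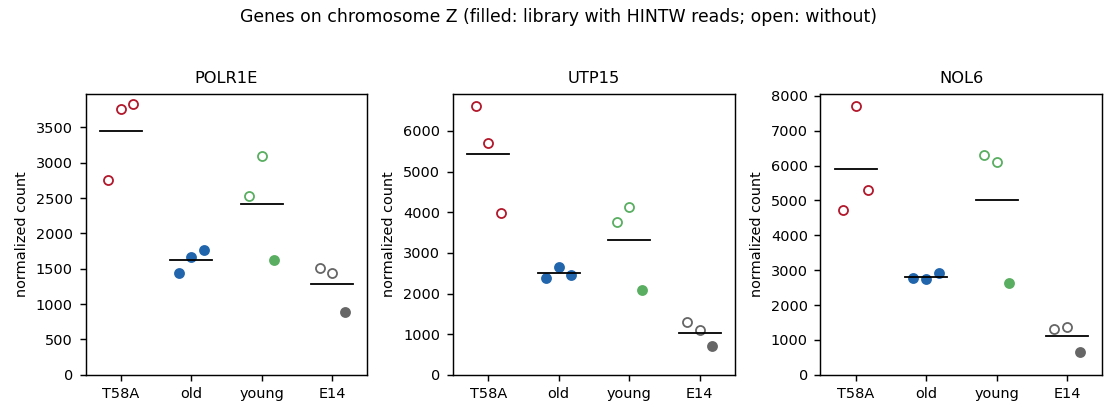
Normalized count of POLR1E, UTP15 and NOL6 in each library (points) with the mean of each group (lines). Filled points are libraries with HINTW reads and open points libraries without. Within each group that holds both kinds of points, the filled point is the lowest, and all old lines are filled while all T58A lines are open.

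NOL4 and NOL4L, the 2 genes with no known part in ribosome assembly, were the only ones of the 45 that were downregulated. The table's NOL4L, which RefSeq lists as C20orf112 on chromosome 20, had 681, 808 and 1198 in T58A, 950.4, 742 and 602 in old and 919, 866 and 935 in young DMC cells, against 4117, 5122 and 4703 in E14 retina. The lines overlapped with each other and were far below the retinas. It fell by 2.41, 2.62 and 2.35 on the log2 scale in T58A, old and young DMC cells (limma adjusted p = 1.32e-05, 7.93e-06 and 1.56e-05). The table's NOL4, which RefSeq lists as NOL4L on chromosome 2, so that the names of the pair differ between annotations, had 457, 1094 and 1233 in T58A, 677, 1169.9 and 1430.5 in old and 1592, 1971 and 1831 in young DMC cells, against 2762, 2782 and 3034 in E14 retina. Every line was below every retina, the old lines were below the young lines, and DMC4 was the lowest. NOL4 was downregulated in T58A (log2 fold change -1.75, SE 0.36, limma adjusted p = 0.0018) and old DMC cells (log2 fold change -1.45, SE 0.36, limma adjusted p = 0.00549), and not DE in young DMC cells (log2 fold change -0.67, SE 0.36, limma adjusted p = 0.136). Left without the pair, the median log2 fold change of the other 43 genes over E14 retina was 1.60 in T58A, 1.37 in old and 1.37 in young DMC cells.

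Time in culture was compared by setting the old lines against the young lines, which are different lines and not 1 set followed over time. All 3 old lines held HINTW reads, and of the young lines only DMC10 did, so HINTW state was not balanced. In old against young DMC cells the median log2 fold change was -0.26 for genes on chromosome Z and 0.01 for genes on autosomes. It was -0.53 for POLR1E, UTP15 and NOL6, the 3 of the 45 genes on chromosome Z. By limma none of the 45 genes was DE, as against 0.0589% of all genes upregulated and 0.137% downregulated. At an unadjusted p under 0.05 there was 1 gene, NOL10, which was higher in old DMC cells, while 9.34% of all genes had such a p. With voom weights none was DE either, and 1 gene higher and 1 lower had an unadjusted p under 0.05. NOL10, a processome protein, had 1587, 2832 and 2539 in old DMC cells, against 1814, 1402 and 1313 in young DMC cells. DMC1 lay within the range of the young lines (log2 fold change 0.59, SE 0.26, limma adjusted p = 0.511). Over the 45 genes the log2 fold change had a median of 0.008, 24 were higher and 21 lower in old DMC cells, and 41 of them changed by under 0.5 on the log2 scale. The SE of these differences ran from 0.17 to 0.39. As examples, the 95% confidence interval of the log2 fold change was -0.79 to 0.27 for NCL, -0.60 to 0.45 for NPM1 and -0.81 to 0.51 for POLR3E. The 8 genes whose old and young lines did not overlap were POLR1C, UTP11, NOL7, NOP14 and UTP23, higher in old DMC cells, and RRP9, UTP4 and NOL4, lower in old DMC cells. Of all genes, 8.88% were likewise higher and 8.03% lower without overlap.

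The T58A substitution was compared by setting the T58A lines against the old lines, both of which had been cultured for over 200 days. By limma none of the 45 genes was DE, as against 0.0327% of all genes upregulated and 0.00654% downregulated, and the lowest limma adjusted p among them was 0.0963, for NOP14. At an unadjusted p under 0.05, 13 genes were higher and none lower in T58A DMC cells, while 8.9% of all genes were higher with such a p. With voom weights none was DE and 14 were higher at an unadjusted p under 0.05, against 8.72% of all genes, and in a fit of the 6 libraries compared none was DE and 9 were higher, against 4.49% of all genes. Over the 45 genes the log2 fold change had a median of 0.28, and 38 of them were higher in T58A DMC cells, beside a median of -0.045 for all genes. With the deposited values as they stand, which are not scaled to library total, the median of the 45 genes was 0.028. Library totals were 20984957 to 25356845 reads in T58A and 27611833 to 31232917 in old DMC cells. The median of all genes on that scale is not given here. All 3 T58A lines were above all 3 old lines for 13 genes, where 7.39% of all genes were, and below them for none, where 7.83% of all genes were. The 13 genes above include POLR1E, POLR3K, NOLC1, NOP56, NPM1, EBNA1BP2, NOP16, NOL6, NOP14, UTP4, UTP15 and UTP20. Of these, POLR1E, NOL6 and UTP15 lie on chromosome Z. All old lines and no T58A line held HINTW reads. HINTW state and the T58A substitution therefore cannot be told apart for any of the 45 genes, on chromosome Z or elsewhere. The median log2 fold change was 0.25 for the 42 genes not placed on chromosome Z. UTP4 had a log2 fold change of 0.76 (SE 0.19, limma adjusted p = 0.0986) and NOLC1 of 0.78 (SE 0.25, limma adjusted p = 0.14). NCL had 0.22, with a 95% confidence interval of -0.30 to 0.75, and NOP58 0.11, with an interval of -0.38 to 0.59.

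The T58A lines differed among themselves more than the lines of the other groups. The median SD of the 45 genes on the log2 scale was 0.42 in T58A, 0.21 in old and 0.19 in young DMC cells, against 0.12 in E14 retina, while that of all genes was 0.64, 0.43 and 0.33, against 0.17. DMC4 was the highest of the 9 lines for 19 genes, DMC5 for 10 and DMC6 for 8. Relative to the mean of DMC5 and DMC6, DMC4 held 2.80 times as much UTP20, 2.36 times NOP53, 1.97 times NOLC1 and 1.97 times NOP2, and only 0.571 times BOP1, 0.593 times NOP58 and 0.669 times POLR1B. The RNA polymerase III subunits POLR3E, POLR3F and POLR3K were highest in DMC4 among the T58A lines. POLR3A and POLR3B and the 4 RNA polymerase I subunits among the 45 genes were lowest there. The RNA polymerase I subunits outside the 45 genes differed, with POLR1A lowest in DMC6 and POLR1F (TWISTNB) highest in DMC4. DMC4 and DMC6 also stood apart from DMC5 in other measures. The 4 proliferation markers summed to 8516 in DMC4, 62544 in DMC5 and 18903 in DMC6, and the 6 cone and photoreceptor genes to 11437, 66032 and 15315. Human MYCN was at 196370.0, 61789 and 200360.0 and the chicken gene MYCN at 354, 0 and 245 in DMC4, DMC5 and DMC6. The sample names carry the codes RPMI for DMC4 and DMC5 and DMEM for DMC6, although the growth protocol names a single medium for all lines. The part of these differences in the values of the 45 genes was not tested.

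Without DMC5, none of the 45 genes was downregulated in T58A against old DMC cells, where 9.34% of all genes were. Upregulated were 5 of the 45 genes, not far above the 7.81% of all genes. Among them the log2 fold change was then 1.82 for NOP14 (SE 0.16, limma adjusted p = 0.000303), 1.06 for UTP20 (SE 0.34, limma adjusted p = 0.044), 1.04 for UTP15 (SE 0.34, limma adjusted p = 0.0493) and 1.01 for POLR1E (SE 0.31, limma adjusted p = 0.0383). The last 2 are on chromosome Z, and NOP14 is a gene at which DMC4 and DMC6 were both well above DMC5. Leaving out any other library gave no DE gene among the 45 in this comparison.

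**Figure D5:**
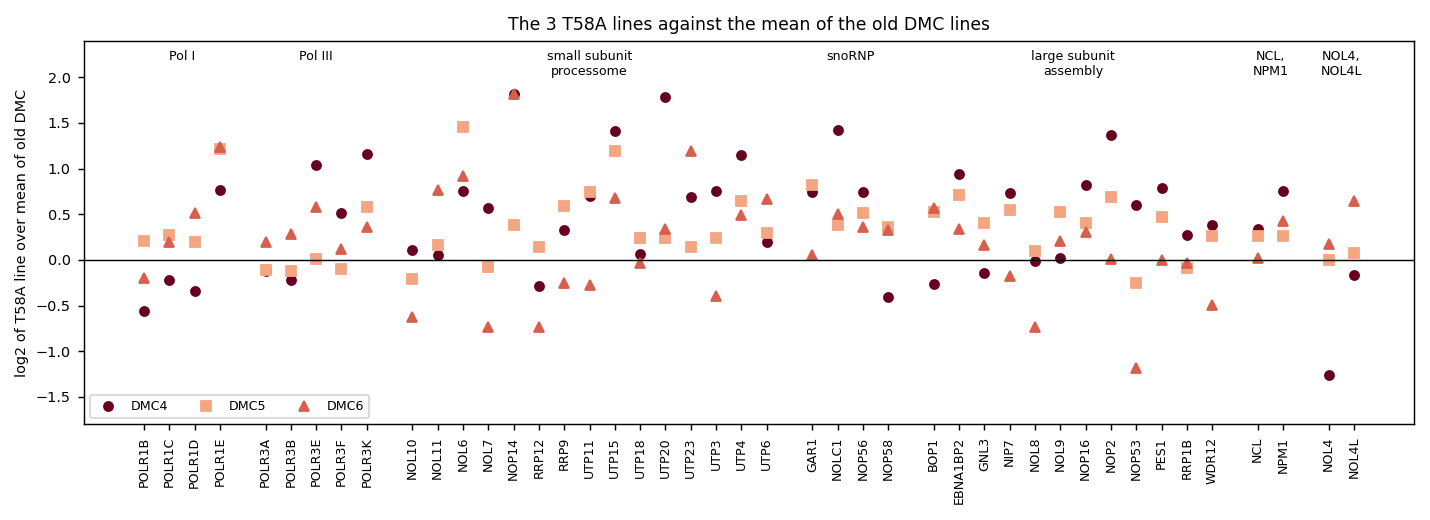
Log2 ratio of each T58A line (circles DMC4, squares DMC5, triangles DMC6) to the mean of the 3 old lines, for 44 of the 45 genes grouped by role. Points above 0 are higher than the old mean. DMC4 and DMC6 are high for NOP14, all 3 lines are above 0 for NOLC1, NOP56, UTP4 and UTP15, and DMC4 is the highest for UTP20.

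Other genes of the same pathways were taken from lists of factors whose symbols the choice above did not cover. Of the 7 initiation factors of RNA polymerase I measured, 4 were upregulated in T58A, 2 in old and 2 in young DMC cells, and 1 was downregulated in each comparison. Of all genes, 19.6%, 20.3% and 20.5% were upregulated, so that the counts in old and young DMC cells were near these shares. Downregulated were 24.8%, 23.5% and 23% of all genes. TCOF1, which encodes treacle, a cofactor of ribosomal DNA transcription, had 24096, 11549.6 and 25783 in T58A, 10320.1, 11827 and 8892 in old and 10691, 13523 and 12599 in young DMC cells, against 2450.1, 2659 and 2729 in E14 retina. DMC4 and DMC6 held more than any other line, and its log2 fold change was 2.89 in T58A, 1.98 in old and 2.23 in young DMC cells (limma adjusted p = 1.10e-05, 1.34e-04 and 6.00e-05). TAF1B, a subunit of the promoter selectivity factor, was at 3.96-fold in T58A, 2.93-fold in old and 3.54-fold in young DMC cells relative to E14 retina (limma adjusted p = 1.43e-05, 7.08e-05 and 2.44e-05). UBTF, the factor that opens ribosomal DNA chromatin and bends the promoter, had 1766, 5120.0 and 3616 in T58A, 4495, 3369 and 4165 in old and 4338, 4206 and 4542 in young DMC cells, against 14806, 16244 and 17859 in E14 retina. All lines were far below all retinas, and it fell by 2.35, 2.03 and 1.90 on the log2 scale in T58A, old and young DMC cells (limma adjusted p = 9.32e-05, 2.56e-04 and 3.92e-04). TWISTNB, an older symbol of the RNA polymerase I stalk subunit POLR1F, had 1287, 450.5 and 597 in T58A, 166, 313 and 202 in old and 244, 332 and 327 in young DMC cells, against 163, 132 and 139 in E14 retina, with DMC4 the highest. Its log2 fold change was 2.28 in T58A, 0.60 in old and 1.04 in young DMC cells (limma adjusted p = 5.82e-04, 0.222 and 0.0433). DIEXF, an older symbol of the small subunit factor UTP25, had a log2 fold change of 1.05 in T58A, 0.97 in old and 0.92 in young DMC cells (limma adjusted p = 4.68e-04, 8.50e-04 and 0.00119).

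Of 15 factors of RNA polymerase III measured, 5 were upregulated in T58A, 4 in old and 1 in young DMC cells, and 2, 1 and 2 were downregulated in the same comparisons. Among all genes the shares upregulated were 19.6%, 20.3% and 20.5%, so that the count in old DMC cells was near, and that in young DMC cells below, the share of genes at large. The shares of all genes downregulated were 24.8%, 23.5% and 23%. GTF3A, the 5S gene factor TFIIIA, was upregulated in all 3, with 2437, 2435 and 1075 in T58A, 1607, 2145 and 2141 in old and 2248, 2042 and 2013 in young DMC cells, against 788, 799 and 792 in E14 retina and a log2 fold change of 1.22 in T58A, 1.29 in old and 1.40 in young DMC cells (limma adjusted p = 0.00349, 0.00257 and 0.00155). SNAPC4, the largest subunit of the complex that serves small nuclear RNA genes, was downregulated in all 3, with a log2 fold change of -1.08 in T58A, -1.67 in old and -1.29 in young DMC cells (limma adjusted p = 0.00201, 1.16e-04 and 6.43e-04). MAF1, the repressor of RNA polymerase III, had 2582, 4585 and 1422 in T58A, 3718, 3527 and 4369 in old and 3312, 3209.9 and 3776 in young DMC cells, against 6111, 7141 and 8206 in E14 retina. All lines were below all retinas, DMC6 most, and it was downregulated in T58A (log2 fold change -1.47, SE 0.33, limma adjusted p = 0.00303) and young DMC cells (log2 fold change -1.05, SE 0.33, limma adjusted p = 0.019) and short of the fold criterion in old DMC cells (log2 fold change -0.88, SE 0.33, limma adjusted p = 0.0413). Of the 5 subunits that all 3 polymerases share, 2 were upregulated in T58A and 1 each in old and young DMC cells, with POLR2E at a log2 fold change of 1.94 in T58A, 1.28 in old and 1.42 in young DMC cells. Of 5 subunits of RNA polymerase II, the enzyme of messenger RNA, 2 were upregulated in T58A and 1 each in old and young DMC cells. For both sets of 5, the counts in old and young DMC cells were near the 20.3% and 20.5% of all genes upregulated there. The RNA polymerase II subunits had a median log2 fold change of 0.55, 0.46 and 0.58 in T58A, old and young DMC cells. The median was 1.45, 1.03 and 0.98 for the 4 RNA polymerase I subunits and 1.24, 0.85 and 0.52 for the 6 RNA polymerase III subunits. POLR1C and POLR1D, counted here with polymerase I alone, are shared with polymerase III, and POLR1E lies on chromosome Z. POLR2B had a log2 fold change of 0.43 in T58A, 1.14 in old and 1.05 in young DMC cells, with DMC4 below all 3 retinas.

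Of 31 other small subunit factors, 24 were upregulated in T58A, 21 in old and 18 in young DMC cells, and RIOK1 was downregulated in old DMC cells. The largest rises in young DMC cells were those of RCL1, an endonuclease of the processome, and NAT10, an acetyltransferase of small subunit RNA. RCL1 had 3348, 5493 and 4992 in T58A, 2654, 3783 and 3633 in old and 4685, 6014 and 3544 in young DMC cells, against 340.0, 375 and 284 in E14 retina, a log2 fold change of 3.77 in T58A, 3.32 in old and 3.81 in young DMC cells (limma adjusted p = 1.28e-06, 3.14e-06 and 1.61e-06). NAT10 had a log2 fold change of 2.86 in T58A, 2.33 in old and 2.33 in young DMC cells, and its T58A lines at 5676, 5217 and 5937 were above the old lines at 4042, 3815 and 3737 and the young lines at 3824, 4171 and 3676, against 757, 806 and 746 in E14 retina. Of 40 other large subunit factors, 30, 23 and 23 were upregulated in T58A, old and young DMC cells, and 1 was downregulated in each. Beside both lists, the shares of all genes were 19.6%, 20.3% and 20.5% upregulated and 24.8%, 23.5% and 23% downregulated. RRS1, a factor that helps bring 5S ribosomal RNA into the large subunit, had a log2 fold change of 2.70 in T58A, 3.36 in old and 2.54 in young DMC cells, with an SE of 0.56, and NSA2 of 1.99 in T58A, 1.31 in old and 2.24 in young DMC cells. DDX55, an RNA helicase of large subunit maturation, was the 1 downregulated in all 3, with a log2 fold change of -1.10 in T58A, -1.58 in old and -1.51 in young DMC cells (limma adjusted p = 0.00856, 0.00102 and 0.00131).

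Of 10 snoRNP partners measured, 6 were upregulated in T58A, 6 in old and 5 in young DMC cells, against 19.6%, 20.3% and 20.5% of all genes. DKC1, the pseudouridine synthase dyskerin that binds GAR1, had 15120.3, 14464 and 9368 in T58A, 11753, 15678 and 10810.2 in old and 13292, 23179 and 18419 in young DMC cells, against 2433, 2537 and 2509.5 in E14 retina and a log2 fold change of 2.35 in T58A, 2.33 in old and 2.84 in young DMC cells (limma adjusted p = 2.28e-05, 2.50e-05 and 7.64e-06). SNU13, which binds box C/D RNA beneath NOP56 and NOP58, had a log2 fold change of 2.49 in T58A, 2.14 in old and 1.90 in young DMC cells (limma adjusted p = 4.58e-06, 1.25e-05 and 2.67e-05). Of 11 subunits and cofactors of the exosome, which trims ribosomal RNA precursors, 8 were upregulated in T58A and 2 each in old and young DMC cells, the last 2 counts being near the 20.3% and 20.5% of all genes upregulated there. The 2 were C1D, at 2.59 in T58A, 1.96 in old and 1.77 in young DMC cells, and the nuclease DIS3, at 1.24 in T58A, 1.20 in old and 1.40 in young DMC cells. For T58A against old DMC cells limma called none of the 11 DE, and their median log2 fold change was 0.65. The 71 cytosolic ribosomal proteins had 62 genes upregulated in T58A, 63 in old and 67 in young DMC cells and none downregulated, with a median log2 fold change of 1.30, 1.34 and 1.78. By limma none of the 71 was DE in old against young DMC cells, where 67 were lower in old DMC cells with a median of -0.41, beside 0.008 for the 45 biogenesis genes, and none was DE in T58A against old DMC cells, where the median was -0.024. RPL3 had 26099, 75617 and 47339 in T58A, 56419, 89063 and 74456 in old and 80596, 133483 and 137251 in young DMC cells, against 22089, 22084 and 22839 in E14 retina and RPS2 65587, 70718 and 46266 in T58A, 40964, 53739 and 55114 in old and 56555, 84680.5 and 80648 in young DMC cells, against 13130.0, 16201 and 15696 in E14 retina. DMC4 was the lowest line for RPL3 and was close to the retinas, while for RPS2 it was within the range of the other lines.

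Of the 4 rows with names from RefSeq alone, POLR1A and UTP14A were upregulated in each comparison. POLR1A, the largest subunit of RNA polymerase I, had 2222, 2466 and 1948 in T58A, 3876, 2875 and 2118 in old and 3454, 3386 and 2719.8 in young DMC cells, against 850.4, 882 and 857 in E14 retina and a log2 fold change of 1.35 in T58A, 1.73 in old and 1.88 in young DMC cells (limma adjusted p = 3.33e-04, 6.58e-05 and 3.81e-05). UTP14A, a processome factor, had 6014, 7709 and 8436 in T58A, 4729.6, 6024 and 6916 in old and 5808, 6595 and 6885 in young DMC cells, against 1493, 1782 and 1768 in E14 retina and a log2 fold change of 2.13 in T58A, 1.80 in old and 1.94 in young DMC cells (limma adjusted p = 7.71e-06, 2.32e-05 and 1.45e-05). NOL12 had a log2 fold change of 0.98 in T58A, 0.48 in old and 0.35 in young DMC cells and was not DE. POLR3C, a subunit that works with POLR3F, had 343, 127 and 3473 in T58A, 393, 1765 and 277 in old and 125, 243 and 223 in young DMC cells, against 202, 189 and 180.0 in E14 retina. DMC2 and DMC6 were far above all other libraries, which lay between 125 and 393. A log2 fold change of 1.48 in T58A, 1.60 in old and -0.01 in young DMC cells carried an SE of 1.00 and was not DE (limma adjusted p = 0.233, 0.201 and 0.995).

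The 45 genes are spread over many chromosomes, with 5 on chromosome 1, 5 on chromosome 4, 4 each on chromosomes 2 and 3 and 3 on chromosome Z. By the order of protein-coding genes in the GRCg7b annotation of RefSeq, UTP4 and NIP7 on chromosome 11 have 3 genes between them, as do NOP58 and WDR12 on chromosome 7, and RRP9 and GNL3 on chromosome 12 have 9. Both genes of each of these pairs were upregulated in all 3 comparisons with E14 retina, and they are among the 25 of the 45 genes that were.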

How the data were processed

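Polyadenylated RNA of 3 E14 retinas and 9 DMC lines was sequenced in 1 library each. The authors counted reads per gene with featureCounts 2.0.0 on galGal6 and deposited a table of scaled counts, a signal that is not whole-numbered. In this deposited signal each value was a read count divided by 1 of the 12 TMM factors of the libraries, applied in a recycled order. The constant matched the library in 8.36% of 205632 values. Dividing out the constants gave whole reads for 100% of these values within 1e-09. Reads were then divided by library total and the library's own factor and brought to the mean of that product (normalized count), and log2 of this value plus 1 was tested.

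Genes with at least 10 reads in at least 3 libraries were fitted by limma 3.58.1 (R 4.3.3) with a mean-variance trend over all 12 libraries in 4 groups, p-values were adjusted by Benjamini-Hochberg over all genes tested, and DE needed an adjusted p of 0.05 or less and an absolute log2 fold change of 1 or more. Each gene has 1 estimate of spread for all 4 groups, although the T58A lines spread more than the other groups. For T58A against E14 retina the lowest limma adjusted p of the 45 genes was 1.35e-06. In a fit of the 6 libraries compared it was 0.000266, with the same numbers of the 45 genes upregulated and downregulated. Fold changes are on the scale with a pseudocount of 1, which lowers them for weakly expressed genes. The log-scale model was chosen because the deposited values are not whole-numbered. The recovered reads were not fitted with a count model, although voom weights were tried. The fit was tested on simulated counts. Tables and figures were made with Python 3.11.15, pandas 2.3.3, numpy 2.4.6 and matplotlib 3.10.9.

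The 45 genes and the further lists were chosen with earlier results of these data known. The polymerase I and III subunits, NCL, NPM1, NOP56, NOP58, NOLC1, GNL3, PES1, BOP1, WDR12, GAR1, NOP16, NOP2, NOL4 and NOL4L were to be named. In the further lists, the genes most changed in young DMC cells among those DE were named. Of the 45 genes, 1 is included in the counts and is not reported here. Other genes named were chosen after their values were seen. Names, neighbours and chromosomes come from RefSeq (GRCg7b), and no coordinates were used. Whether the lines are clones, and whether strand was used in counting, is not given in the sources used here, and p-values measure the spread between these libraries, which may in part be technical.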

Additional observations from a re-analysis of the deposited data

Results flagged for a closer look

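UTP23 lay on opposite sides of the mean of the retinas in different DMC cells. All 3 T58A lines were above it, with a log2 fold change of 0.79 against E14 retina, and all 3 young lines were below it, with a log2 fold change of -0.27. Neither value met the criteria for DE, and the difference between T58A and young DMC cells was not tested.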

How the results depend on the processing

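The counts, medians and calls of the 45 genes were computed under 23 alternatives for scaling, pseudocount, filter, weights, libraries in the fit and leaving out each library, and the other lists, the rows named by RefSeq and the ratios by HINTW state were not. Against E14 retina, of 35 DE genes in T58A, 31 in old and 27 in young DMC cells, 28, 21 and 18 were DE under every alternative, and no direction reversed. The matching shares of all genes are not given here, so whether the 45 genes held their calls more often than other genes is not shown. Scaling moved the most. Without TMM factors the 45 genes had a median log2 fold change of 1.29 in T58A, 1.00 in old and 0.82 in young DMC cells, and 2 genes were downregulated in young DMC cells. The deposited values as they stand are not scaled to library total. With them the median was 1.15, 1.20 and 1.06 in the same order. It was then 0.16 for old over young and 0.028 for T58A over old DMC cells. At a common column total it was 1.29, 0.95 and 0.88, with 17 genes upregulated in young DMC cells. At that total, among others, POLR1B, RRP1B, UTP3 and UTP20 lost their call in young and NOL6, NOL10 and UTP11 in old DMC cells. Without TMM factors, again among others, UTP15 and NOL10 lost theirs in old and UTP3 in young DMC cells. Leaving out 1 library at a time gave medians of 1.52 to 1.66 in T58A and 1.11 to 1.35 in young DMC cells. It gave 0 to 5 upregulated genes for T58A over old DMC cells, and the 5 appeared without DMC5, where 7.81% of all genes were upregulated. Single libraries also decided calls near the criteria. UTP18 lost its call in T58A without E14 replicate 2 and in old DMC cells without that retina or DMC2, and NOP53 in young DMC cells without DMC10 or E14 replicate 1. These calls of UTP18 and NOP53 were also lost without TMM factors and at a common column total. In T58A DMC cells UTP23 was DE without DMC5 and POLR1D without DMC4, and in young DMC cells POLR1E was DE without DMC10, without E14 replicate 1 or without E14 replicate 2.

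Restricting the fit to the 7 libraries without HINTW reads, chosen after seeing the data, gave 34 upregulated and 2 downregulated genes in T58A and 21 and 1 in young DMC cells. The shares of all genes in that fit are not given here. The old lines and the retinas both carry the numbers 1 to 3, which name lines in the one and retinas in the other. With these numbers as a replicate block, also added after seeing the data, 29 genes were upregulated and 2 downregulated in old DMC cells, and the deviations of same-numbered libraries correlated at -0.022, 0.030 and 0.015 across genes. The comparisons of T58A, old and young DMC cells share no numbers. For the fit with the block the shares of all genes are likewise not given. The planned search of promoters for an E-box was not run. POLR3K, with the lowest read number of the 45 genes in any library (91), and UTP23, with 149 to 473 reads per library, are limited most by depth.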
